A study of Mus musculus with 109 samples.

Results

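The genes described here are 10 genes of matrix proteolysis, taken by name from the 37315 genes of the count table: the matrix metalloproteinases Mmp2, Mmp3, Mmp12, Mmp14 and Mmp19, the inhibitor Timp3, the aggrecanase-family proteases Adamts1 and Adamts4, and the urokinase Plau with its receptor Plaur. They were followed in RNA sequenced from 109 whole retinas of 64 mice, with both eyes of 45 mice among them. WT mice were C57BL/6J and all mice were adults, whose age the authors give both as 2 to 4 months and as 2 to 6 months. Every eye had been injected intravitreally, so that no uninjected retina enters a comparison. In batch 1, WT retinas were taken 2 days after injection of PBS (31 retinas), TNF (8), IL1A (9) or both cytokines, IL1A+TNF (10). WT retinas of the same batch were taken 14 days after PBS (7 retinas of 6 mice) or TNF (6) and 35 days after PBS (6) or TNF (9). Batch 2 held retinas taken 2 days after PBS or IL1A+TNF, 5 and 6 from WT mice and 6 and 6 from Sarm1KO mice, a line deficient in Sarm1 throughout the body. Sarm1KO retinas were sequenced in batch 2 alone. Many PBS retinas were the fellow eyes of cytokine-injected eyes, and the comparisons of day 2 within a batch share their PBS retinas.

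Matrix metalloproteinases are zinc proteases that cut collagens, elastin, fibronectin and proteoglycans around cells, and most are made as inactive precursors. Tissue inhibitors of metalloproteinases bind their active sites, ADAMTS proteases cleave hyalectan proteoglycans of the brain and retina, and urokinase bound to its receptor turns plasminogen into plasmin, which in turn activates several metalloproteinases. In the eye the pigment epithelium lays down TIMP3 in the membrane beneath it, and blood-borne myeloid cells bring many of these proteases into inflamed tissue.

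Total counts lay between 30014757 and 79064488 per retina (median 39374202). Summed markers of Müller glia, the radial glia of the retina, lay between 2050 and 5180 CPM (counts scaled to the library total with TMM factors) in all 109 retinas. Sarm1 itself lay between 26.2 and 53.2 CPM in the 12 Sarm1KO retinas and between 84.1 and 126 CPM in the 11 WT retinas of batch 2, so that the ranges did not overlap. Some retinas stood apart. Summed lens markers were above 100 CPM in 14 retinas of 9 groups. The IL1A+TNF retinas of Sarm1KO mice 61924 and 61926 lay 1.88 and 1.96 times as far from their group as its median retina. Retinas of mice 59709 (TNF, day 14, 1.93), 60637 (IL1A, 1.85), 60212 (IL1A+TNF, 1.79) and 60588 (PBS, 1.77) lay nearly as far. In RNA of whole tissue, fewer cells of a type and less RNA per cell cannot be told apart.

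TPM are given here as counts per length of all annotated exons of a gene merged, scaled to the library. By this measure Timp3 and Adamts1 were the most abundant of the 10 genes in PBS retinas of day 2. They lay at 47 ± 16.4 and 46.7 ± 18.5 TPM (mean ± SD, n = 31), and these levels did not differ beyond their spread. Mmp2 followed at 14.6 ± 2.52 TPM and Mmp14 at 12 ± 3.79 TPM, again within their spread. Adamts4 (3.37 ± 1.22 TPM), Plau (3.13 ± 3.07 TPM), Mmp3 (2.11 ± 1.82 TPM) and Mmp19 (1.93 ± 0.847 TPM) formed a lower tier with overlapping spreads, and Plaur (1 ± 0.821 TPM) and Mmp12 (0.622 ± 0.502 TPM) were lowest. After IL1A+TNF (n = 10), Adamts1 (53.6 ± 10.2 TPM) and Timp3 (45.1 ± 10.8 TPM) again had the highest means and did not differ beyond their spread. Plaur (3.82 ± 2.21 TPM) and Mmp12 (2.68 ± 1.53 TPM) again had the lowest means, within the spread of Plau (4.23 ± 1.74 TPM). The low rank of Mmp12 in TPM depends on its merged length, 7237 bases against 2367 for Plau and 2617 for Plaur. Without length, Mmp12 averaged 5.44 CPM after IL1A+TNF, above Plau (2.84) and Plaur (2.75). In PBS retinas it averaged 1.3 CPM, above Plaur (0.784). Mmp3 was at 14.6 ± 20.4 TPM, with an SD larger than its mean.

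Mmp12, Mmp3 and Plaur had the largest differences from PBS after IL1A+TNF, and the DNA just before their annotated starts is shown here because all 3 hold the same 7 letters. The windows are the 250 bases before the start on GRCm38.p6 (the mm10 assembly) from the RefSeq-based reference tables, read 5′ to 3′ on the plus strand, with TGAGTCA or its reverse complement TGACTCA in capitals. These letters are the core motif bound by AP-1, the dimer of JUN and FOS proteins.
Mmp3, chr9:7445572-7445821, plus strand: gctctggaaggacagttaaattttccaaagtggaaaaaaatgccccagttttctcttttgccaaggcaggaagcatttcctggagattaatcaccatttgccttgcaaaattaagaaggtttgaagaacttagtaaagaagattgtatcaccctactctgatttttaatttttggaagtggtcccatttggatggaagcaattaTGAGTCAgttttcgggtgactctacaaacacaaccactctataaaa
Mmp12, second annotated start, chr9:7347124-7347373, plus strand: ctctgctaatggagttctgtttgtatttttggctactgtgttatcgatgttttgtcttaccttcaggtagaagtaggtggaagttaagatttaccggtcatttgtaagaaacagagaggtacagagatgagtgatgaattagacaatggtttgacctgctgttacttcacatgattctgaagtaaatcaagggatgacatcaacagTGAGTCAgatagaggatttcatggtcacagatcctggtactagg
Plaur, chr7:24462233-24462482, plus strand: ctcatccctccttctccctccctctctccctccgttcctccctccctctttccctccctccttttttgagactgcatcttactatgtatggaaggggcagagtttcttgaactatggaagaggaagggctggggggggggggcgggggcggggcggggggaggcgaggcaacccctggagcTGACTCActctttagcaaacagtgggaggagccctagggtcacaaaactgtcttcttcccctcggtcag
The match lay from -46 to -40 before Mmp3, from -44 to -38 before the second start of Mmp12 and from -69 to -63 before Plaur, the last on the minus strand. Windows were found for 6 of the 10 genes (7 windows), and those of Mmp14, Timp3, Adamts1 and the first start of Mmp12 held no match. Of all 32851 windows of this length, 4.46% held TGAGTCA on either strand. Neither the letters TGACGTCA, the cyclic AMP response element (1.55% of all windows), nor the NF-kB consensus (1.41%), searched on both strands, occurred in the 7 windows. A match describes the letters only, and no binding was measured.

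At day 2, IL1A+TNF raised 8 of the 10 genes in WT retinas and lowered none, as called at a Benjamini-Hochberg adjusted p (FDR) under 0.05 by limma across 19548 genes. Over all genes 50.4% were called, 24.9% higher and 25.5% lower, so the count of members is read against a response that reached about every other gene. The median log2 fold change of the 10 genes was 0.87, against -0.02 over all genes. IL1A alone raised 6 of the 10 (21.4% of all genes were called, 12% higher and 9.45% lower), and TNF alone changed none by limma, edgeR or DESeq2 (0.655% called, 0.614% higher and 0.0409% lower). All 5 metalloproteinases rose after IL1A+TNF, and 4 of them rose after IL1A, of which Mmp14 and Mmp19 were also called with mouse as a fixed block.

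**Figure D1:**
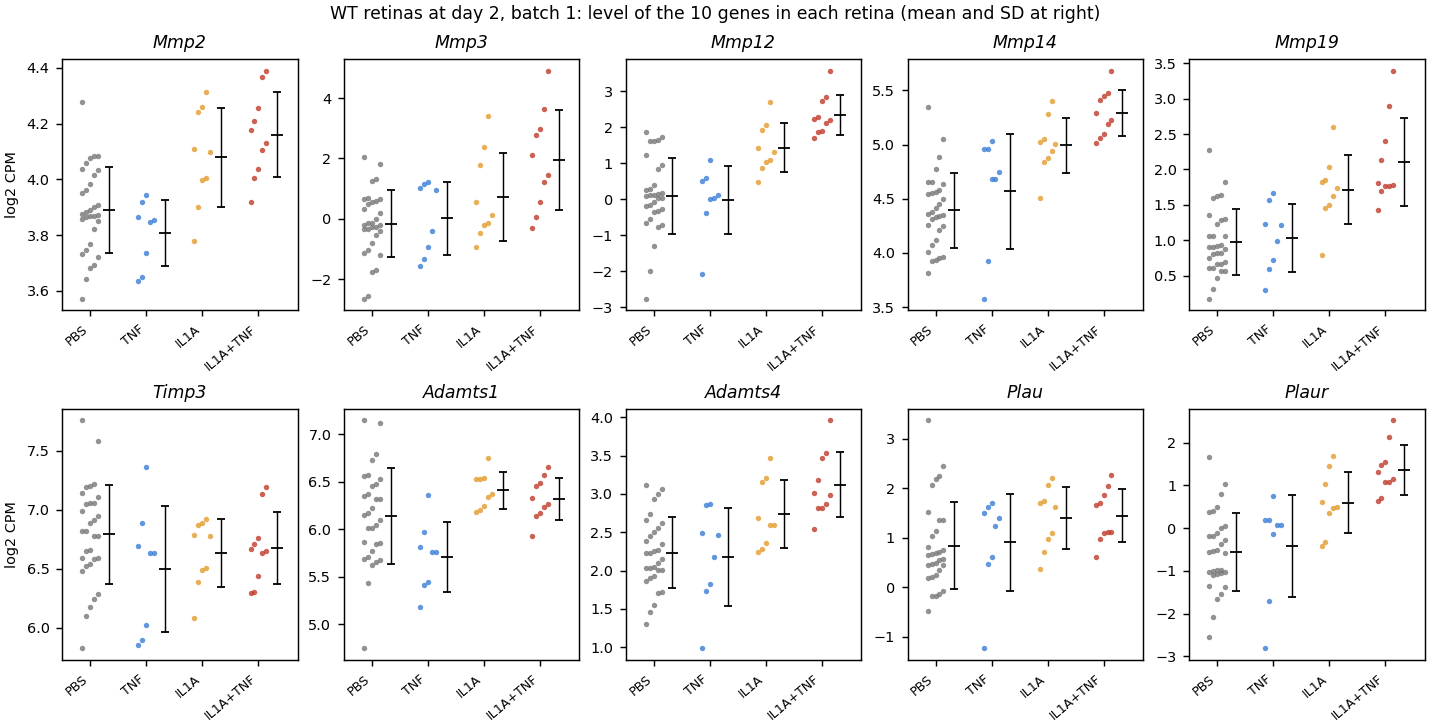
Level of each of the 10 genes (log2 CPM) in every WT retina of day 2 in batch 1, by agent, with the mean and SD of each group as bars beside the points. Mmp12, Mmp14, Mmp19 and Plaur sat higher after IL1A and after IL1A+TNF than after PBS or TNF, while the Timp3 points of the 3 cytokine groups lay within the range of the PBS points.

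Mmp12, the macrophage elastase (ENSMUSG00000049723, chromosome 9, 7344381 to 7369499, plus strand), showed the largest change. Its level was 0.0986 to 3.58 CPM in PBS retinas (median 1.02), 0.188 to 2.09 CPM after TNF (median 1.01), 1.34 to 6.42 CPM after IL1A (median 2.42) and 3.18 to 11.9 CPM after IL1A+TNF (median 4.59). The lowest IL1A+TNF retina lay just inside the PBS range, and the other 9 lay above every PBS retina. The log2 fold change was 2.25 ± 0.25 (SE) after IL1A+TNF (FDR = 3.34e-11), and 1.41 ± 0.29 after IL1A (FDR = 0.000148). It was -0.07 ± 0.40 after TNF (FDR = 0.986). In the 8 mice with a PBS eye and an IL1A+TNF eye, the IL1A+TNF eye was higher in 8. The IL1A eye was higher in 5 of 7 mice, and with mouse as a fixed block the call after IL1A was lost (0.88, FDR = 0.166, and 8.09e-05 to 0.166 over 19 alternatives). Mmp12 overlaps Mmp1b on the opposite strand, and whether counting used strand is not stated in the sources used here.

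Mmp3, stromelysin-1, which cleaves proteoglycans and other pro-metalloproteinases (ENSMUSG00000043613, chromosome 9, 7445822 to 7455975, plus strand), rose by a similar amount but far less evenly. PBS retinas held 0.111 to 4.07 CPM (median 0.819). After IL1A+TNF the 10 retinas held 0.763, 0.992, 1.42, 2.3, 2.69, 4.32, 6.75, 7.75, 12.4 and 30.1 CPM, so that 5 lay above every PBS retina and 2 below the PBS mean. The log2 fold change was 2.11 ± 0.42 (FDR = 2.89e-05) after IL1A+TNF. It was 0.98 ± 0.52 (FDR = 0.184) after IL1A, where 1 retina reached 10.6 CPM and the median was 1.04 CPM. The difference after IL1A missed the threshold here and passed it with edgeR (log2 fold change 1.18, FDR = 0.0468), with FDR values from 0.024 to 0.352 over its 19 alternatives.

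Mmp14, the membrane-anchored collagenase that activates pro-MMP2 (ENSMUSG00000000957, chromosome 14, 54431612 to 54445364, plus strand), changed less and with little spread. It lay at 14 to 40.6 CPM in PBS retinas (median 20.5), 22.7 to 42.3 CPM after IL1A (median 32.1) and 32.2 to 51.4 CPM after IL1A+TNF (median 38.3). Every IL1A+TNF and every IL1A retina was above the PBS mean. The log2 fold changes were 0.88 ± 0.11 after IL1A+TNF (FDR = 5.7e-10) and 0.60 ± 0.12 after IL1A (FDR = 5.29e-05). After TNF, Mmp14 lay at 11.9 to 32.7 CPM (median 26.2) and its log2 fold change was 0.20 ± 0.13 (FDR = 0.791). Mmp19, a metalloproteinase of basement membrane components made by myeloid and vascular cells (ENSMUSG00000025355, chromosome 10, 128790910 to 128800824, plus strand), lay at 1.08 to 4.77 CPM in PBS retinas (median 1.82) and 2.65 to 10.5 CPM after IL1A+TNF (median 3.42). Its log2 fold changes were 1.13 ± 0.16 after IL1A+TNF (FDR = 3.71e-08) and 0.76 ± 0.18 after IL1A (FDR = 0.00106). Mmp2, gelatinase A (ENSMUSG00000031740, chromosome 8, 92827291 to 92853420, plus strand), was the steadiest gene of the 5, at 11.8 to 19.3 CPM in PBS retinas (median 14.6) and 15.1 to 20.9 CPM after IL1A+TNF (median 17.8). A rise of 1.21-fold was called for it (log2 fold change 0.28 ± 0.05, FDR = 1.05e-05), with 10 of 10 retinas above the PBS mean and all but 2 inside the PBS range. The call of Mmp2 after IL1A (0.19 ± 0.06, FDR = 0.0121) was lost with mouse as a fixed block (0.12, FDR = 0.205, and 0.00352 to 0.205 over 19 alternatives).

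The inhibitor Timp3 (ENSMUSG00000020044, chromosome 10, 86300372 to 86349506, plus strand) was not called after any agent. It lay at 56.6 to 216 CPM in PBS retinas (median 113), 57.8 to 164 CPM after TNF (median 99.2), 67.8 to 121 CPM after IL1A (median 110) and 78.5 to 146 CPM after IL1A+TNF (median 101). All 3 cytokine groups lay inside the PBS range. The log2 fold change after IL1A+TNF was -0.11 (95% confidence interval -0.39 to 0.17, FDR = 0.539). After IL1A it was -0.15 (-0.44 to 0.14, FDR = 0.531), and after TNF it was -0.29 (-0.59 to 0.02, FDR = 0.685). Timp3 overlaps Syn3 on the opposite strand.

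Markers of the pigment epithelium, a known source of Timp3, moved with the treatment. Of the 9 markers, 7 were lower after IL1A+TNF and none was higher, and none of the 9 was at 0 in any of these retinas. Their summed level was 41.8 to 511 CPM in PBS retinas (median 136), 12.5 to 131 CPM after IL1A+TNF (median 52.5), 14.4 to 177 CPM after TNF (median 49.8) and 31.2 to 171 CPM after IL1A (median 98.5). Across the 31 PBS retinas, log2 Timp3 and the log2 marker sum correlated with a Pearson r of 0.89 (permutation p = 1e-05, the smallest the permutations can give, adjusted p = 0.00012 over 60 relations) and a Spearman rho of 0.867 (p = 1e-05, adjusted p = 0.00015). Without the 2 retinas farthest from the median, r was 0.849. Timp3 followed the summed fibroblast markers nearly as closely (r = 0.87, permutation p = 1e-05, adjusted p = 0.00012, rho = 0.873, p = 1e-05, adjusted p = 0.00015, and r = 0.839 without the 2 farthest retinas). When the marker sum was added to the limma fit as a covariate, an alternative chosen after seeing the data, the log2 fold change of Timp3 after IL1A+TNF turned to 0.49 (FDR = 4.95e-06, with values from 4.95e-06 to 0.69 over its 19 alternatives). With the same covariate all 10 genes were called higher after IL1A+TNF, with Adamts1 at 0.46 (FDR = 0.0147, and 0.0147 to 0.827 over its alternatives) and Plau at 1.27 (FDR = 0.000304). Over all genes 9334 were called with the covariate, against 9852 of 19548 without it. The split of the 9334 into higher and lower is not given here. Timp3 was then at 0.07 after IL1A (FDR = 0.615) and 0.22 after TNF (FDR = 0.234). The covariate is itself lower in cytokine-injected retinas, and the part of these cells in the level of Timp3 was not tested beyond this fit.

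**Figure D2:**
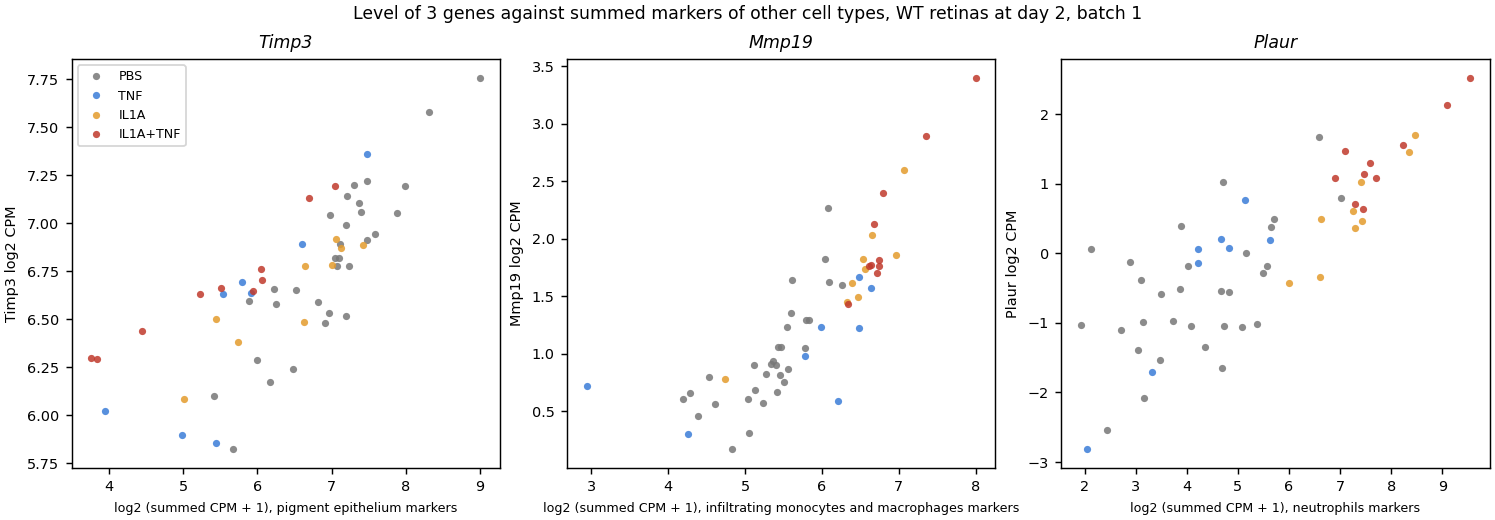
Level of Timp3, Mmp19 and Plaur (log2 CPM) against the summed level of pigment epithelium, infiltrating monocyte and macrophage, and neutrophil markers (log2 of summed CPM + 1), 1 point for each WT retina of day 2 in batch 1, coloured by agent. IL1A+TNF points lie to the left in the first panel, at a median marker sum of 52.5 CPM against 136 CPM in PBS retinas, and to the right in the other panels.

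The 2 ADAMTS genes differed in their response. Adamts4, an aggrecanase (ENSMUSG00000006403, chromosome 1, 171250421 to 171260637, plus strand), lay at 2.43 to 8.61 CPM in PBS retinas (median 4.63), 4.69 to 11 CPM after IL1A (median 6.02) and 5.77 to 15.5 CPM after IL1A+TNF (median 7.93). It rose by a log2 fold change of 0.86 ± 0.15 after IL1A+TNF (FDR = 1.16e-06) and 0.53 ± 0.16 after IL1A (FDR = 0.0136). All 10 IL1A+TNF retinas were above the PBS mean and 4 were above every PBS retina. With mouse as a fixed block the call after IL1A was lost (0.50, FDR = 0.225, and 0.00742 to 0.225 over 19 alternatives). Adamts1, a versican- and aggrecan-cleaving protease (ENSMUSG00000022893, chromosome 16, 85793827 to 85803113, minus strand), lay at 26.8 to 142 CPM in PBS retinas (median 71.1) and 61 to 101 CPM after IL1A+TNF (median 78.6), inside the PBS range. Its log2 fold change was 0.20 (95% confidence interval -0.08 to 0.48, FDR = 0.245) after IL1A+TNF and 0.26 (-0.04 to 0.55, FDR = 0.229) after IL1A. With TNF alone it lay at 36.2 to 82.3 CPM (median 54.2), with 7 of 8 retinas below the PBS mean. That difference (log2 fold change -0.41, -0.73 to -0.09) had an unadjusted p of 0.0125 and did not pass the correction (FDR = 0.393, limma).

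Of the urokinase pair, the receptor changed clearly and the protease near the threshold. Plaur (ENSMUSG00000046223, chromosome 7, 24462484 to 24475968, plus strand), the receptor that holds urokinase at the cell surface, lay at 0.123 to 3.14 CPM in PBS retinas (median 0.631), 0.7 to 3.2 CPM after IL1A (median 1.36) and 1.5 to 5.72 CPM after IL1A+TNF (median 2.29). All 10 IL1A+TNF retinas were above the PBS mean, and 2 were above the highest PBS retina. The log2 fold changes were 1.91 ± 0.24 after IL1A+TNF (FDR = 8.9e-10) and 1.27 ± 0.27 after IL1A (FDR = 0.000286), and 0.15 ± 0.36 after TNF (FDR = 0.964). With mouse as a fixed block the call after IL1A was lost (1.10, FDR = 0.103, and 6.47e-05 to 0.103 over 19 alternatives). Plau (ENSMUSG00000021822, chromosome 14, 20836660 to 20843385, plus strand) lay at 0.668 to 10.3 CPM in PBS retinas (median 1.52) and 1.47 to 4.77 CPM after IL1A+TNF (median 2.62), inside the PBS range. Its rise after IL1A+TNF (log2 fold change 0.60 ± 0.26, FDR = 0.0497) was the call nearest the threshold, with 5 of 10 retinas above the PBS mean, and it was lost with edgeR (0.35, FDR = 0.338) and DESeq2 (0.36, FDR = 0.345), with FDR values from 0.000304 to 0.345 over 19 alternatives. After IL1A the log2 fold change of Plau was 0.55 ± 0.28 (FDR = 0.164).

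**Figure D3:**
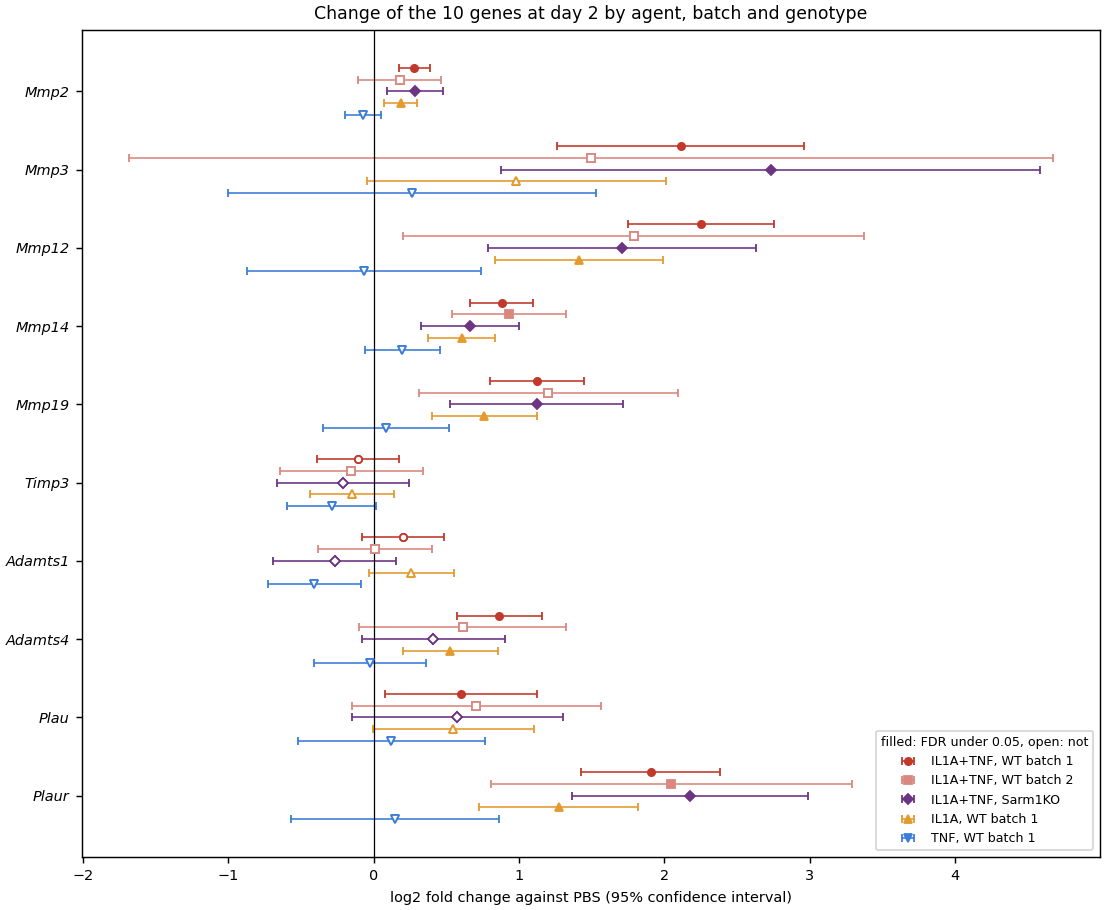
Log2 fold change against PBS of the same batch and genotype, with its 95% confidence interval, for each gene and each agent at day 2. Filled markers have an FDR under 0.05. IL1A+TNF in WT batch 1 (red circles) is filled for 8 of 10 genes, IL1A (orange triangles) for 6 and TNF (blue triangles) for none.

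Compared with each other, the agents separated the genes in one direction only. Against TNF, IL1A+TNF raised 8 of the 10 genes (39% of all genes called, 20% higher and 19% lower), namely all but Timp3 and Plau, with log2 fold changes from 0.35 for Mmp2 to 2.32 for Mmp12. Adamts1 was among them (0.61 ± 0.19, FDR = 0.00823). Against IL1A, IL1A+TNF changed none of the 10 by limma, edgeR or DESeq2 (10.1% of all genes called, 5.39% higher and 4.68% lower), although 4 of the 10 had an unadjusted p under 0.05. The nearest was Mmp12 (log2 fold change 0.84, 95% confidence interval 0.24 to 1.44, FDR = 0.0615). Plaur differed by 0.63 (0.06 to 1.21, FDR = 0.155) and Mmp3 by 1.13 (0.05 to 2.21, FDR = 0.182). A departure from the sum of the separate IL1A and TNF effects was called for none of the 10 by limma, edgeR or DESeq2 (3.6% of all genes, 1.78% higher and 1.82% lower), and for none was the unadjusted p under 0.05 by limma. The widest intervals were those of Mmp3 (0.87, -0.80 to 2.53) and Mmp12 (0.91, -0.10 to 1.91). With mouse as a fixed block in place of a random one, the called members numbered 2 of 10 for IL1A and 3 of 10 for IL1A+TNF against TNF. The calls over all genes fell as well, from 4193 to 2116 for IL1A and from 7618 to 2753 for IL1A+TNF against TNF. Female and male retinas differed in none of the 10 by the 3 tools (0.363% of all genes called, 0.184% higher and 0.179% lower in females), with Plaur higher in females by 0.60 ± 0.21 at an unadjusted p of 0.00616 (FDR = 0.251).

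Genes of the same families, listed with earlier results of these data known, moved in both directions after IL1A+TNF. The counts are to be read against 24.9% higher and 25.5% lower over all genes. Of 12 other metalloproteinases tested, 5 were higher and 1 lower, with a median log2 fold change of -0.04. Mmp9, gelatinase B (log2 fold change 2.30), Mmp25 (2.62) and Mmp8, the neutrophil collagenase (2.46), rose, and the membrane-bound Mmp15 fell by 0.25. Among 5 other inhibitors, Timp1 (1.85) and Timp2 (0.29) rose, and Reck, a membrane-anchored inhibitor, fell by 0.68. The 16 other ADAMTS genes were split evenly, with 4 higher (Adamts5 0.40, Adamts7 0.41 and Adamts9 0.83 among them) and 4 lower (Adamts16 -1.91, Adamts19 -1.91 and Adamts3 -0.20 among them). In the plasminogen system 6 of 11 were higher, among them the plasminogen receptors Plgrkt (0.50), S100a10 (0.75) and Anxa2 (1.04), and vitronectin (Vtn) fell by 0.26. Of the 7 ADAM sheddases 6 rose, with the smallest FDR for Adam8 (1.12), Adam17 (0.36) and Adam15 (0.34).

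Among 23 genes of matrix proteins on which these proteases act, 9 were higher and 4 lower after IL1A+TNF. Over all genes 24.9% were higher and 25.5% lower. Fibronectin (Fn1, log2 fold change 1.53), agrin (Agrn, 0.61) and the basement membrane collagen Col4a1 (1.04) rose. The proteoglycan brevican (Bcan) fell by 0.42, the link protein Hapln1 by 0.49 and aggrecan (Acan) by 0.87. The median log2 fold change of the 23 was 0.03, close to the -0.02 of all genes. No protein or enzyme activity was measured.

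Most markers of neutrophils and of infiltrating monocytes and macrophages were higher after IL1A+TNF, while those of microglia went both ways. Of 7 neutrophil markers tested 5 were higher after IL1A+TNF, and their summed level was 2.8 to 128 CPM in PBS retinas (median 15.9), 3.13 to 48.6 CPM after TNF (median 20.9), 63.2 to 350 CPM after IL1A (median 155) and 119 to 745 CPM after IL1A+TNF (median 184). Ly6g was at 0 in 25 of 31 PBS retinas and in 6 of 10 IL1A+TNF retinas, and Ngp and Camp were under 1 CPM on average in both groups. Of 8 markers of infiltrating monocytes and macrophages 7 were higher, with a sum of 17.3 to 75.8 CPM in PBS retinas (median 41.8) and 79.9 to 256 CPM after IL1A+TNF (median 105). After TNF 0 of these 8 were called, with a median log2 fold change of 0.87. Their sum there was 6.68 to 98.95 CPM, reaching above the PBS range. Of 8 microglia markers 3 were higher and 3 lower after IL1A+TNF, against 24.9% and 25.5% of all genes. The neutrophil list holds Mmp8 and the monocyte list holds Vcan, which also stand in the lists above. In the 31 PBS retinas the monocyte and macrophage sum correlated with Mmp19 (Pearson r = 0.774, permutation p = 1e-05, adjusted p = 0.00012, Spearman rho = 0.867, p = 1e-05, adjusted p = 0.00015, and r = 0.812 without the 2 farthest retinas). Mmp19 also followed the fibroblast sum (r = 0.692, permutation p = 3e-05, adjusted p = 0.000257, rho = 0.688, p = 1e-05, adjusted p = 0.00015, and r = 0.599 without the 2 farthest). The monocyte and macrophage sum correlated with Timp3 nearly as closely (r = 0.72, permutation p = 2e-05, adjusted p = 0.0002, rho = 0.678). It correlated with Mmp14 (r = 0.624, permutation p = 0.00017, adjusted p = 0.00127, rho = 0.487) and Plau (r = 0.606, permutation p = 0.00041, adjusted p = 0.00273, rho = 0.521) too. Mmp12 had no such relation with the monocyte and macrophage sum past the correction (r = 0.241, permutation p = 0.189, adjusted p = 0.289, rho = 0.275, p = 0.132, adjusted p = 0.24, and r = 0.276 without the 2 farthest). The neutrophil sum correlated with Plaur less closely (r = 0.554, permutation p = 0.00158, adjusted p = 0.0079, rho = 0.467, p = 0.00901, adjusted p = 0.036, and r = 0.388 without the 2 farthest retinas). The part of these cells in the levels of the proteases was not tested.

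The same contrast could be examined in the 11 WT retinas of batch 2, which the fit of batch 1 did not use. There limma called 2 of the 10 genes higher after IL1A+TNF and none lower (20.9% of all genes called, 13.3% higher and 7.55% lower). Mmp14 lay at 21, 23.5, 28.3, 33.1 and 35.1 CPM in the 5 PBS retinas and at 45.1, 49.2, 49.9, 50.6, 62.7 and 75.3 CPM in the 6 IL1A+TNF retinas, without overlap (log2 fold change 0.93 ± 0.19, FDR = 0.00147). Plaur lay at 0.639, 0.715, 0.728, 0.842 and 1.33 CPM after PBS and at 2.67, 2.79, 3.05, 3.5, 5.09 and 6.35 CPM after IL1A+TNF, again without overlap (2.05 ± 0.60, FDR = 0.0191). Mmp19 did not overlap either, at 1.28, 2.47, 2.79, 2.88 and 3.06 CPM against 3.57, 4.29, 4.86, 6.76, 7.06 and 10.4 CPM, and missed the threshold (1.2 ± 0.43, FDR = 0.051, and 0.00193 to 0.123 over its 14 alternatives). The share of all genes without overlap at these group sizes was not counted, so the lack of overlap is a description only. Mmp12 was higher in the IL1A+TNF eye of 5 of 5 WT mice with both eyes (log2 fold change 1.79 ± 0.76, FDR = 0.1). Its PBS retina of mouse 61927, at 8.82 CPM, stood among the IL1A+TNF retinas. Mmp3 ranged from 1.77 to 55.7 CPM after IL1A+TNF and from 0.757 to 6.48 CPM after PBS, and its difference (1.5, 95% confidence interval -1.69 to 4.68) was not detectable with this spread. The call of Plaur was lost on leaving out WT PBS mouse 61721 (FDR = 0.0599), 61927 (FDR = 0.0526) or 62224 (FDR = 0.0539), each counted with both its eyes, and with mouse as a fixed block (FDR = 0.0863). Leaving out Sarm1KO mice 61924 and 61926, which share the estimate of spread, raised the count to 4 of 10, and that of all genes from 4110 to 7266. The IL1A+TNF effects in WT retinas of the batches differed for none of the 10 genes (0 of 20328 genes called by limma), with differences from -0.62 ± 1.19 for Mmp3 to 0.14 ± 0.48 for Plau.

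In Sarm1KO retinas IL1A+TNF raised 6 of the 10 genes (43.5% of all genes called, 21.3% higher and 22.2% lower), namely the 5 metalloproteinases and Plaur. The log2 fold changes were 2.73 ± 0.93 for Mmp3 (FDR = 0.0131), 2.18 ± 0.41 for Plaur (FDR = 1.4e-05) and 1.71 ± 0.46 for Mmp12 (FDR = 0.00171). Those of Mmp19, Mmp14 and Mmp2 were 1.12 ± 0.30, 0.66 ± 0.17 and 0.29 ± 0.10. All 6 calls were lost without 2 of the 6 mice. Mmp3 lay at 1.48, 2.28, 3.11, 19.2, 91.8 and 187 CPM after IL1A+TNF, the last 2 from mice 61924 and 61926, and at 0.552 to 4.33 CPM after PBS. The same 2 retinas were the highest for Mmp12 (33.1 and 40.8 CPM, the other 4 at 2.88 to 6.52 CPM), Mmp19 (17.2 and 17.8 CPM, the others at 2.81 to 4.33 CPM) and Plaur (16.6 and 18 CPM, the others at 1.82 to 4.76 CPM). In them the summed neutrophil markers were 664 and 604 CPM and the monocyte and macrophage markers 361 and 384 CPM, against group medians of 275 and 130 CPM, while the mural cell markers were at 53.6 and 53.7 CPM against a group median of 140 CPM. The part of these cells in the levels was not tested. Without both mice (both eyes of each), an alternative chosen after seeing the data, 0 of the 10 genes were called, and 995 genes were called in place of 8768. Plaur then had a log2 fold change of 1.00 (FDR = 0.126), Mmp14 of 0.46 (FDR = 0.154) and Mmp12 of 0.68 (FDR = 0.419), and the FDR of Plaur ran from 1.13e-05 to 0.126 over its 15 alternatives. The retina of 61926 also held lens markers at 4192 CPM, and without all lens-rich retinas 4 of the 10 genes were called (7479 of all genes in place of 8768). Mmp14 was higher in the IL1A+TNF eye in 6 of 6 Sarm1KO mice and Plaur in 5 of 6.

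**Figure D4:**
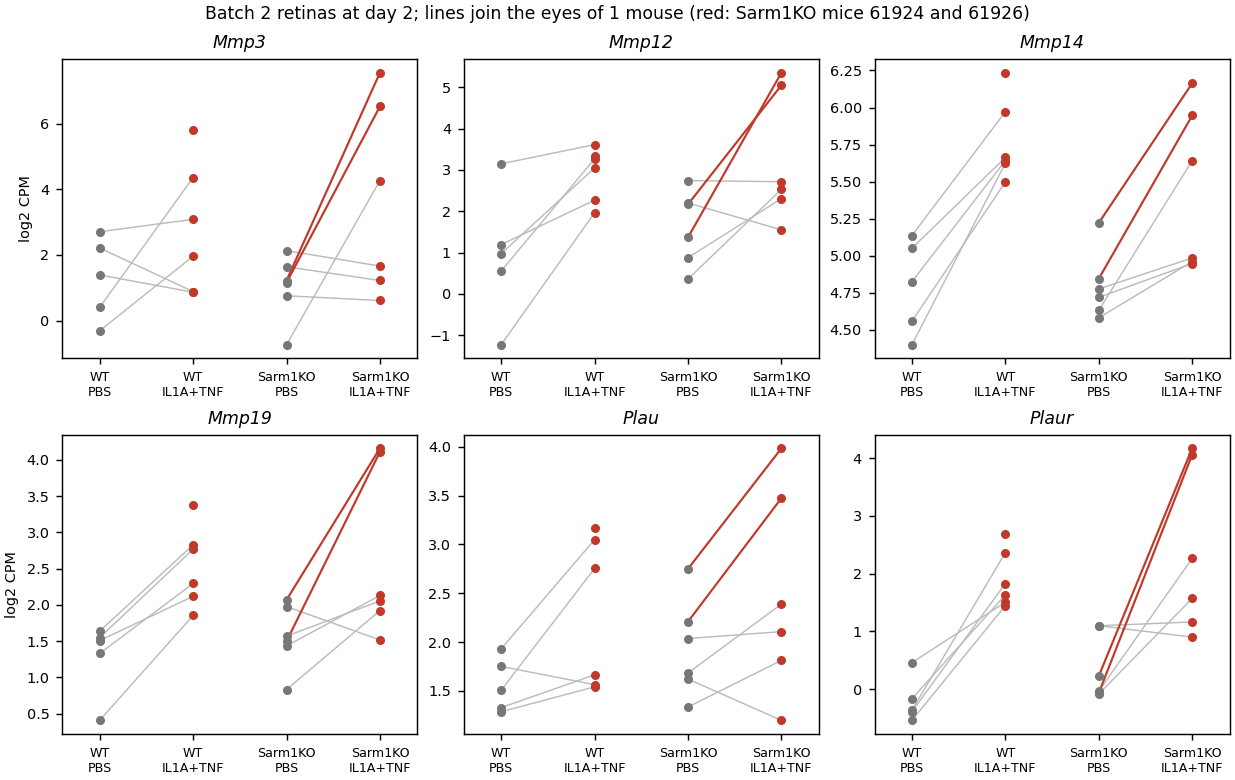
Level (log2 CPM) of 6 genes in the PBS and IL1A+TNF retinas of WT and Sarm1KO mice of batch 2, with lines joining the eyes of a mouse and Sarm1KO mice 61924 and 61926 in red. The 2 red lines end at the highest Sarm1KO retinas for all 6 genes, and Plaur rises in 5 of 5 WT pairs.

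Genotype itself was without a called difference in the 10 genes. Sarm1KO and WT retinas differed in 0 of 10 after PBS (0.0397% of all genes called, 0.00496% higher and 0.0347% lower) and in 0 of 10 after IL1A+TNF (14.8% called, 4.04% higher and 10.8% lower), and the response to IL1A+TNF differed by genotype in 0 of 10 (8.75% called, 1.51% higher and 7.24% lower), each by limma, edgeR and DESeq2. Unadjusted p was under 0.05 for 1 gene in the first of these (Adamts1, higher in Sarm1KO PBS retinas by 0.45, 95% confidence interval 0.05 to 0.84, FDR = 0.965) and for none in the other two by limma. Without mice 61924 and 61926, an unadjusted p under 0.05 was reached by 4 of 10 genes after IL1A+TNF and by 5 of 10 for the difference in response, with no call. The difference in response was then below 0 for 10 of 10 genes, among them Mmp12 (-1.48, FDR = 0.313, and 0.313 to 0.992 over its 14 alternatives) and Plaur (-0.96, FDR = 0.396, and 0.396 to 0.976). The shares of all genes below 0 or at this unadjusted p without the 2 mice are not given here. These counts are therefore descriptions only and are not read as particular to the 10 genes. Over all genes, 154 were then called after IL1A+TNF and 0 for the difference in response. The direction of several differences turned with mice 61924 and 61926. After IL1A+TNF, Sarm1KO minus WT was 0.76 for Mmp3 and 0.62 for Plaur with them, and -1.06 (FDR = 0.505) and -0.25 (FDR = 0.775) without them, with FDR values from 0.158 to 0.883 and from 0.125 to 0.775 over the 14 alternatives. The 95% confidence interval of the difference in response, over all mice, was -0.73 to 1.2 for Plaur, -1.53 to 0.69 for Mmp12 and -1.38 to 3.11 for Mmp3, and narrower for Mmp14 (-0.62 to 0.16) and Mmp2 (-0.19 to 0.26).

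The 23 genes of matrix proteins were also followed in Sarm1KO retinas. Their fit and group sizes were unlike those of the WT count above, so the counts of calls are not compared between genotypes. Of the 23, 3 rose and 9 fell in Sarm1KO retinas, against 21.3% and 22.2% of all genes. The response differed by genotype for 4 of the 23 (8.75% of all genes), all with a lower response in Sarm1KO retinas, and for 4 of 6 mural cell markers, whose part was not tested. Without mice 61924 and 61926, and with batch 2 alone, 0 genes were called for the difference in response in place of 1763, so these calls were lost in both cases. Without those mice 995 genes in place of 8768 were called for IL1A+TNF in Sarm1KO retinas.

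TNF alone left the 10 genes without a called change at the later days as well. At day 14, 8 of the 10 passed the filter on low counts and 0 were called (0% of 18023 genes), and at day 35, 7 passed and 0 were called (0% of 17821 genes), by limma, edgeR and DESeq2. The gene nearest to a change was Mmp12 at day 14. It lay at 0.101, 0.165, 0.197, 0.31, 0.322, 0.365 and 0.394 CPM in the 7 PBS retinas and at 0.192, 0.303, 0.496, 0.577, 0.96 and 1.23 CPM in the 6 TNF retinas, from 4 to 51 counts a retina. Of the TNF retinas 4 were above every PBS retina, and the log2 fold change of 1.14 ± 0.38 had an unadjusted p of 0.00909 and an FDR of 0.888. It was the only one of the 8 with an unadjusted p under 0.05, and at day 35 none was.

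**Figure D5:**
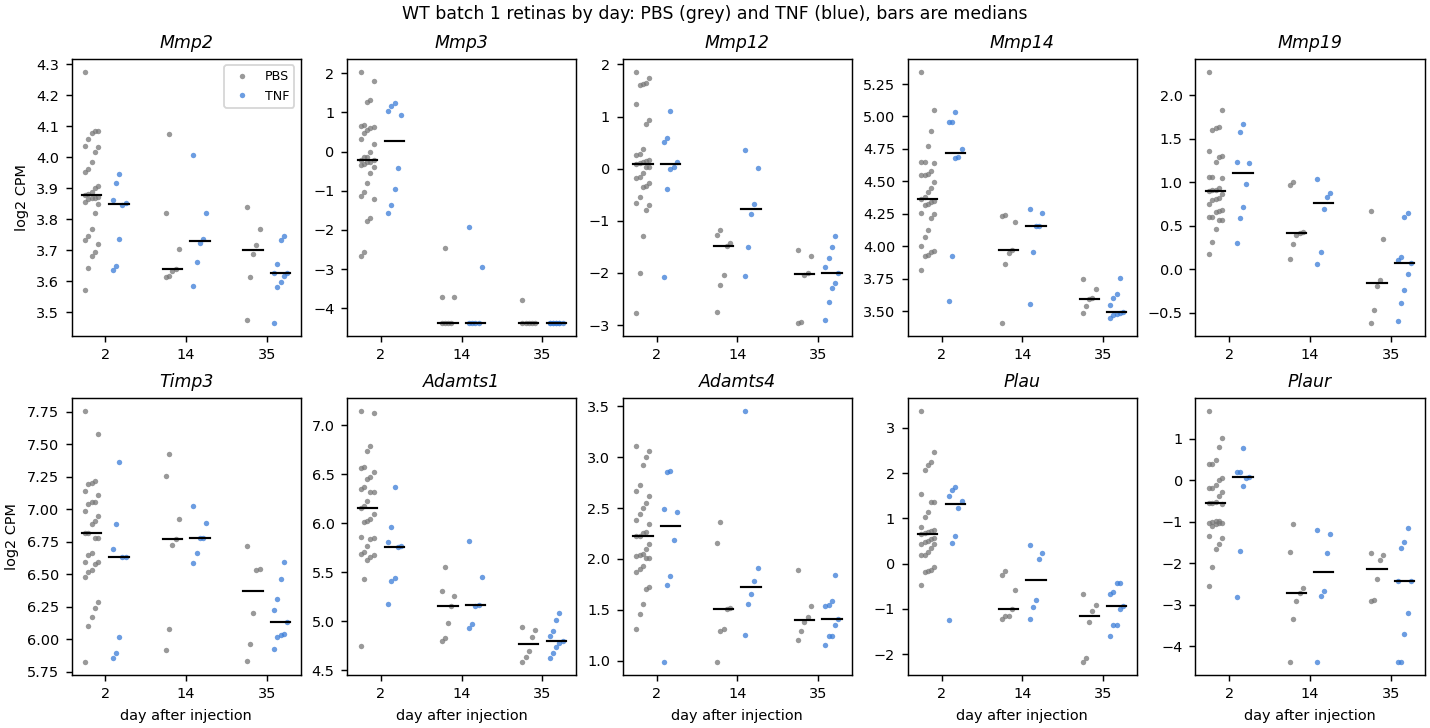
Level (log2 CPM) of each gene in WT PBS (grey) and TNF (blue) retinas of batch 1 at days 2, 14 and 35, with medians as bars. All 10 genes were lower in PBS retinas of day 35 than of day 2, and Mmp3 fell to 0 or nearly 0 counts.

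PBS retinas of different days differed in more of the 10 genes than TNF and PBS retinas did at any day. Each day came from other mice, so day and mice cannot be told apart. Some PBS retinas of day 2 were also fellow eyes of eyes given IL1A or IL1A+TNF, agents absent from the samples of later days. Against day 2, limma called 7 of the 10 lower at day 14 and none higher (19.2% of all genes called, 8.68% higher and 10.5% lower), and 10 of 10 lower at day 35 (32.8% called, 15.4% higher and 17.4% lower). Without a filter on low counts the calls at day 35 of Mmp2 (FDR = 0.0526) and Timp3 (FDR = 0.0794) were lost. An F test over the 3 days called 9 of 10 (35.9% of all genes), all but Timp3 (FDR = 0.104). Plaur lay at 0 to 0.431 CPM at day 14 (median 0.103, log2 fold change -2.54 ± 0.59, FDR = 0.0015) and 0.0841 to 0.247 CPM at day 35 (median 0.181, -1.88 ± 0.55, FDR = 0.00632). Plau went from a median of 1.52 CPM at day 2 to 0.449 CPM at day 14 and 0.4 CPM at day 35, where its range of 0.174 to 0.576 CPM lay below every PBS retina of day 2. Mmp14 fell without overlap at day 35 too, to 11.2 to 13.4 CPM, and Adamts1 fell by 1.36 on the log2 scale (FDR = 3.51e-06). The share of all genes without overlap between these days was not counted.

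Mmp3 all but vanished from the later retinas. The 31 PBS retinas of day 2 held 1320 counts of it in all, the 7 of day 14 held 6, with 4 retinas at 0, and the 6 of day 35 held 1. The pooled level at day 2 was 44.6 times that of day 14 (95% confidence interval 20.4 to 122) and 256 times that of day 35 (45.9 to 10100). The 9 TNF retinas of day 35 held 0 counts, which allows a pooled level of up to 0.00913 CPM of raw totals (3 counts over the group), so that day 2 PBS retinas were at least 122-fold higher. These intervals cover counting error only. Of the 6 counts at day 14, 4 came from the right retina of mouse 59710, whose left retina is also in the group. Myeloid markers were also lower at day 35 than at day 2 in PBS retinas, 5 of 7 for neutrophils and 7 of 8 for monocytes and macrophages, and 5 of 7 fibroblast markers were too. The part of these cells was not tested, and each day came from other mice.

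The 10 genes varied together between PBS retinas of day 2, though not all with each other. Of 45 pairs, Mmp14 and Plau were the closest (Pearson r = 0.844, permutation p = 1e-05, adjusted p = 0.0003, Spearman rho = 0.758, p = 1e-05, adjusted p = 0.00045, and r = 0.738 without the 2 farthest retinas, n = 31). Mmp19 and Plau followed (r = 0.742, permutation p = 2e-05, adjusted p = 0.0003, rho = 0.629, p = 0.0002, adjusted p = 0.00207, and r = 0.583 without the 2 farthest). In the same retinas the fibroblast sum correlated with Plau (r = 0.783, permutation p = 1e-05, adjusted p = 0.00012, rho = 0.704). It also correlated with Mmp14 (r = 0.736, permutation p = 1e-05, adjusted p = 0.00012, rho = 0.647). The pigment epithelium sum did so less closely (r = 0.568 for Plau and 0.543 for Mmp14). The part of these cells in the pairs was not tested. The gene outside the 10 with the most similar level over the 58 WT retinas of day 2, among 15125 genes, was Cmtm3 for Mmp14 (r = 0.947), Adgra3 for Timp3 (0.925), Stat6 for Mmp19 (0.91) and C5ar1, the receptor of complement fragment C5a, for Plaur (0.905). It was Grem1 for Plau (0.854), Tubb6 for Adamts4 (0.839), Bhlhe40 for Adamts1 (0.793), Spcs3 for Mmp3 (0.785) and Gm16174 for Mmp2 (0.781). For Mmp12 it was the gene with the identifier ENSMUSG00000089672 (0.878). These are descriptions over retinas that share the treatment groups.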

How the data were processed

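The authors deposited raw counts of read pairs per gene for 109 whole retinas, made from polyA RNA with STAR 2.7.9a on mm10 and featureCounts of Subread 2.0.1. The annotation release and the counting strand are not given in the sources used here. Groups, sexes, batches and mouse numbers came from the sample labels, and 0 columns belonged to no sample. Symbols and positions came from GENCODE M21 (35533 of 37315 genes).

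Tests ran in limma 3.58.1 (statmod 1.5.0, R 4.3.3), with DESeq2 1.42.0 and edgeR 4.0.16 as alternatives. Genes passed filterByExpr (minimum count 10, total 15, proportion 0.7, large groups from 10). TMM scaling, voom and duplicateCorrelation, with mouse as random block and sex as covariate, were run in 2 rounds. The Sarm1KO comparisons used all 81 retinas of day 2 with a batch term, and the WT comparison of batch 2 used its 23 retinas. PBS retinas of the 3 days were compared without a block. FDR was taken over all genes tested. Replicates were separate mice, and samples with the same mouse number were the eyes of 1 mouse. The within-mouse correlation was 0.0515 at day 2, 0.284 at day 14, 0.0794 at day 35, 0.00525 in the Sarm1KO fit and -0.0763 in batch 2. Total counts of 30014757 or more per retina place a count of 10 below 1 CPM.

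The members and lists were chosen with earlier results of these data known. Genes named are the 10 members, from each related list up to 3 higher and 3 lower with the smallest FDR after IL1A+TNF, and for each member the gene of most similar level. On simulated counts with 200 changed genes, 87% of those changed by a log2 fold of 1 were called for IL1A+TNF at day 2 (19548 genes) and 66% for WT retinas of batch 2 (19668 genes). These counts were drawn without a correlation between the eyes of a mouse, and far fewer genes were changed than were called in the data. The changed genes were drawn at any level, so the rates are not those of the 10 genes. Alternatives were other scaling, filter, tools, block and sex terms, mice left out, and those said to be chosen after seeing the data. Cell counts and staining of tissue were not analysed here.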

Additional observations from a re-analysis of the deposited data

Results flagged for a closer look

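In 4 of 105 sets of a gene and a group, 1 retina lay far from the others by Dixon's criterion, which chance meets in about 1 of 20 sets. Adamts4 was at 10.9 CPM in the day 14 TNF retina of mouse 59829, above the other 5 at 2.33 to 3.71 CPM. In the day 2 TNF retina of mouse 60584, Mmp12 was at 0.188 CPM, below the others at 0.719 to 2.09 CPM, and Plau was at 0.376 CPM, below the others at 1.33 to 3.21 CPM. Mmp19 was at 1.28 CPM in the batch 2 WT PBS retina of mouse 61722, below the others at 2.47 to 3.06 CPM.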

How the results depend on the processing

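Of 2486 values and member counts recomputed under an alternative, 2332 kept their direction and side of the threshold or, for counts, stayed within 1.5 times, and 38 single-gene calls were lost and 15 gained. With mouse as a fixed replicate block, the called members went from 6 to 2 for IL1A (Mmp14 and Mmp19 kept), from 8 to 3 for IL1A+TNF against TNF, from 8 to 7 for IL1A+TNF against PBS and from 2 to 1 for IL1A+TNF in WT retinas of batch 2. Over all genes the calls went, in the same order, from 4193 to 2116, from 7618 to 2753, from 9852 to 6987 and from 4110 to 2286. For IL1A+TNF against IL1A, 1 member (Mmp12, FDR = 0.0305) was called without the sex term, among 2231 of all genes. With pigment epithelium markers as a covariate, 2 (Mmp14, FDR = 0.0415, and Timp3, FDR = 0.00289) were called, among 2180 of all genes. That covariate, chosen after seeing the data, reversed Timp3 after IL1A+TNF to 0.49. Sarm1KO calls fell from 6 to 0 without mice 61924 and 61926. In WT retinas of batch 2 the count was 4 with DESeq2 (5213 of all genes), 4 without those mice (7266) and 1 to 2 with a WT PBS mouse left out. Leaving out a TNF mouse gave 7 to 8 calls for IL1A+TNF against PBS and 7 to 8 against TNF, where Mmp3 was lost without mouse 60584 (FDR = 0.0525). The causes were not tested. In the batch 2 WT comparison the simulation called 90% of genes changed by a log2 fold of 2, so smaller changes there can be missed.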

Other observations

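The PBS retinas of day 2 were the fellow eyes of differently treated eyes, and the 10 genes were compared between them after the data had been seen. Among 31 PBS retinas, the fellow eye had received IL1A in 7, IL1A+TNF in 8 and TNF in 8, and was not sequenced in 8. An F test by limma called 0 of 18989 genes and 0 of the 10, with 1 of the 10 at an unadjusted p under 0.05. That gene was Mmp2 (p = 0.0224, FDR = 1), with median levels of 16.3 CPM beside IL1A eyes, 14.6 CPM beside IL1A+TNF eyes, 13.7 CPM beside TNF eyes and 14.8 CPM where no fellow eye was sequenced. Mmp12 had medians of 0.977, 1.03, 0.806 and 1.07 CPM in the same order.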
